A study of Mus musculus with 4 samples.

Results

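The genes described here encode proteins of ATP-consuming cycles that adipocytes can use to make heat without UCP1. The 10 genes, named by symbol, were *Gatm*, *Gamt*, *Ckb*, *Ckmt1*, *Ckmt2*, *Slc6a8*, *Alpl*, *Atp2a2*, *Ryr2* and *Gk*. Of these, 6 were found by symbol among the 12661 genes of the bulk RNA-seq table. *Gk* was found under its older symbol, *Gyk*, and is given apart from the other 6 in every count. *Ckmt1*, *Ckmt2* and *Ryr2* were not analysed here.

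The tissue was the PVAT and other outer tissue around the femoral artery (FA). All animals were wild type female C57BL/6 mice, 11 weeks old by the labels, and all had been ovariectomized, the sham group included. FAs were injured by insertion of a wire of 0.38 mm, or sham-operated, and the outer tissue was taken 48 h later, with 2 libraries in each group. The labels do not say whether the 2 libraries of a group came from separate animals, so p-values measure only the spread between these libraries.

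In creatine synthesis, GATM (glycine amidinotransferase) joins arginine and glycine to guanidinoacetate, and GAMT (guanidinoacetate methyltransferase) methylates it. SLC6A8 is the plasma membrane creatine transporter, creatine kinases such as CKB pass phosphate from ATP to creatine, and ALPL (tissue-nonspecific alkaline phosphatase) has been described to hydrolyse phosphocreatine in thermogenic adipocytes. In the calcium cycle, SERCA2b, encoded by *Atp2a2*, pumps calcium into the endoplasmic reticulum at the cost of ATP, and ryanodine receptors let it out again. Glycerol kinase, encoded by *Gk*, spends ATP to return glycerol to glycerol 3-phosphate, so that fatty acids freed by lipolysis can be re-esterified. These cycles are known from beige and brown fat, where they run beside UCP1.

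Each gene is placed on NCBIM37, the assembly of mm9. *Gatm* lies at chr2:122420203-122437039, *Gamt* at chr10:79720896-79723757, *Ckb* at chr12:112907566-112910549, *Alpl* at chr4:137297648-137352299, *Atp2a2* at chr5:122903531-122952183 and *Gyk* at chrX:82947276-83022158, all on the minus strand. *Slc6a8* lies on the plus strand at chrX:70918489-70927841. All 7 are annotated as protein-coding. The exons of *Gyk* share 84 bases with *Gm14764*, a transcript of the opposite strand, and the strand setting of the read counting is not given in the sources used here. No other member shares exonic bases with another annotated gene.

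The promoters of 3 genes are shown because the values of these genes differed in their pattern over the libraries. They are *Gatm*, whose 4 libraries lay close together, *Ckb*, whose sham libraries lay far apart, and *Gk*, whose injury libraries were both above both sham libraries. The sham libraries of *Gk* lay farther apart still (sham replicate 1 minus sham replicate 2 was -1.498, against 0.626 for *Ckb*). Each sequence is from RefSeq (GRCm38.p6) and holds 250 bases before to 50 bases after the annotated start, 5′ to 3′ on the gene's strand. Each had 1 exact match in NCBIM37, at chr2:122436964-122437263, chr12:112910500-112910799 and chrX:83022109-83022408 respectively, all on the minus strand. Capitals mark matches to the motifs searched on both strands.
Gatm: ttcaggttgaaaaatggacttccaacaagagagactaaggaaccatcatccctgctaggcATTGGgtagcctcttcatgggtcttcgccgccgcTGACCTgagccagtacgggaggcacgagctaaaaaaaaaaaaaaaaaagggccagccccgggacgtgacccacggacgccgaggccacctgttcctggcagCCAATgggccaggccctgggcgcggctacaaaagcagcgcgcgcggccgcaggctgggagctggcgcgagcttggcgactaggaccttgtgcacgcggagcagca
Ckb: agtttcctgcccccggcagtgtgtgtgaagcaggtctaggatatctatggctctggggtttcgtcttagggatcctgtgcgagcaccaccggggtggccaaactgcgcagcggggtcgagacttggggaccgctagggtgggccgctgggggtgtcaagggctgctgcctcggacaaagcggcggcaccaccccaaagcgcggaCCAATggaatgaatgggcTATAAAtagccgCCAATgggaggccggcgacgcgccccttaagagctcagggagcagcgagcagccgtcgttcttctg
Gk: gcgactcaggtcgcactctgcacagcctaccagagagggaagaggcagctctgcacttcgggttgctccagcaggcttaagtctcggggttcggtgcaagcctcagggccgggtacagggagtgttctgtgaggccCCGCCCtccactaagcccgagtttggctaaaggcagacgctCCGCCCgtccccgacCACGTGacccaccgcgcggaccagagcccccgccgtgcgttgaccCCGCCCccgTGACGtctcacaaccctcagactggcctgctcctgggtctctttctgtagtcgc

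The motifs searched were the nuclear receptor motif AGGTCA, the estrogen-related receptor motif TCAAGGTCA, which contains it, the cAMP response motif TGACGTCA and its shorter form TGACG, the core promoter motifs TATAAA for TBP and CCAAT for the factor NF-Y, the motif GGGCGG known for binding Sp1, and the E-box, here CACGTG. The *Gatm* promoter held AGGTCA on the opposite strand and CCAAT on both strands. AGGTCA was found in 16.3% and CCAAT in 37.4% of 32851 promoters of the same length. The *Ckb* promoter held TATAAA, found in 13.6% of promoters, at position -28 from the start, with a CCAAT on either side of it. The *Gk* promoter held 3 matches to GGGCGG on the opposite strand, 1 CACGTG and 1 TGACG, motifs found in 35.7%, 7.15% and 20.8% of promoters. TCAAGGTCA (0.423% of promoters) and TGACGTCA (1.79%) were in none of the 3. These matches describe the letters of the windows only.

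None of the futile cycle genes passed the test for a difference between injury and sham. The values are signed decimals on a scale that behaves like a log scale. Neither its base nor the samples that set its centre are stated, and the centre of a gene need not lie among these 4 libraries (all 4 values of *Ucp1*, for example, were above 0). They are therefore given in deposited units, with no fold change and no ranking of levels between genes, and the read depth behind them is unknown. A gene was called when its adjusted p-value was under 0.05 (limma, Benjamini-Hochberg over 12661 genes). By this rule 0 of 6 members were called, and 0 of 7 with *Gyk*, against 7.43% of all genes (3.76% higher and 3.67% lower after injury). At an unadjusted p-value under 0.05 the count was also 0, against 29.5% of all genes. An unmoderated linear model called 0 members as well, and it called 0 of all genes. The number of all genes called fell to 0 without sham replicate 1, to 1 without sham replicate 2 and to 284 without injury replicate 1, and was 1790 without injury replicate 2. In bulk tissue, fewer cells of a type and less RNA per cell cannot be told apart.

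The median absolute difference of the 6 genes was 0.181 deposited units, against 0.255 over all genes. *Gatm*, *Slc6a8* and *Atp2a2* had absolute differences at percentiles 19.6, 20.4 and 19.9 of all genes, and *Gamt*, *Ckb* and *Alpl* at percentiles 52.1, 55.2 and 55.3. The sham libraries were 0.219 units apart in the median member and 0.155 units apart in the median gene. The libraries of the 2 groups did not overlap in 1 of the 6 genes, and in 61.9% of all genes.

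**Figure D1:**
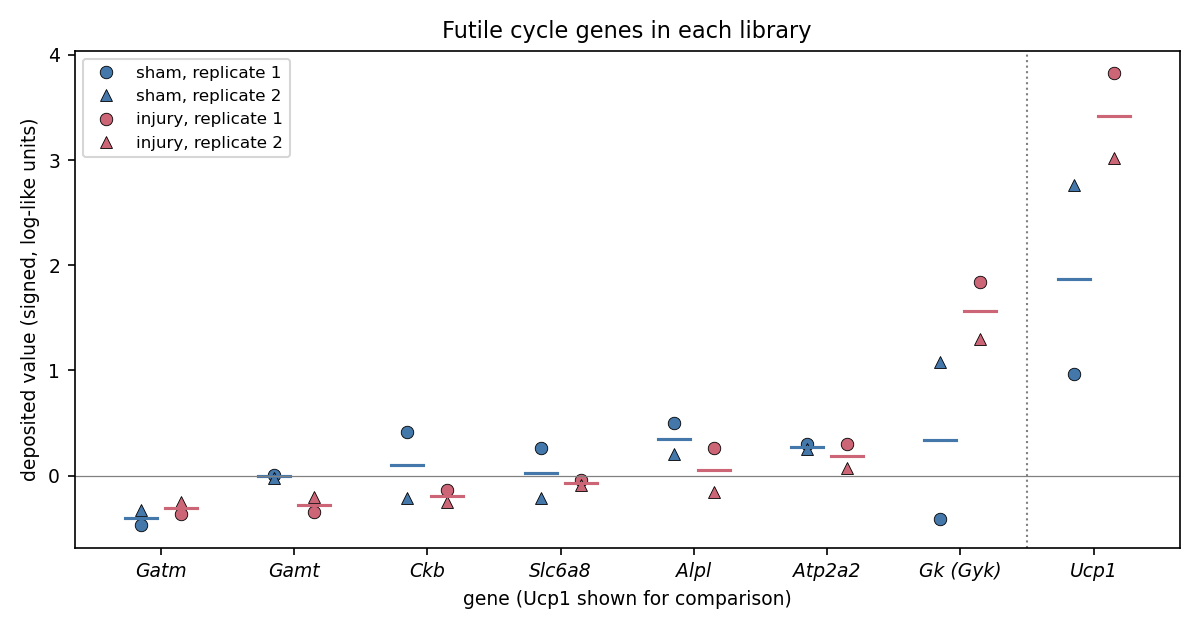
Deposited value (vertical axis, signed log-like units) of each futile cycle gene and of *Ucp1* in the 2 sham (blue) and 2 injury (red) libraries; circles are replicate 1, triangles replicate 2 and bars group means. The groups overlap for *Gatm*, *Ckb*, *Slc6a8*, *Alpl* and *Atp2a2*, while sham replicate 1 is the lowest library for *Gk* (*Gyk*) at -0.414 and for *Ucp1* at 0.971.

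Creatine synthesis was examined first. *Gatm*, which encodes the first enzyme, had values of -0.471 and -0.328 in sham and -0.367 and -0.254 in injury. The groups overlapped, with injury replicate 1 between the 2 sham libraries. The difference, injury minus sham, was 0.0887 (SE 0.142, 95% interval -0.266 to 0.444, limma adjusted p = 0.719), and it ran from 0.0169 without sham replicate 1 to 0.160 without sham replicate 2.

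*Gamt*, which encodes the methyltransferase of the final step, had values of 0.00293 and -0.0179 in sham and -0.348 and -0.207 in injury. Both injury libraries were below both sham libraries, and *Gamt* was the member found by symbol whose groups did not overlap. The difference was -0.270 (SE 0.137, 95% interval -0.614 to 0.0742) and did not pass the test (limma adjusted p = 0.257). Without each library in turn the difference ran from -0.341 to -0.199.

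*Slc6a8*, the creatine transporter, had values of 0.267 and -0.212 in sham and -0.0451 and -0.0855 in injury. Both injury libraries lay between the sham libraries, which were 0.479 apart. The difference was -0.0930 (SE 0.195, 95% interval -0.582 to 0.396, limma adjusted p = 0.786), and without sham replicate 1 it was 0.146, of the opposite sign.

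*Ckb*, the brain-type creatine kinase that is also expressed in thermogenic adipocytes, had values of 0.414 and -0.213 in sham and -0.137 and -0.247 in injury. Sham replicate 1 stood above the other 3 libraries, and the sham libraries were 0.626 apart. The difference was -0.292 (SE 0.232, 95% interval -0.874 to 0.289, limma adjusted p = 0.451), and 0.0207 without sham replicate 1.

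*Alpl*, the phosphatase of the cycle, had values of 0.497 and 0.203 in sham and 0.264 and -0.1505 in injury. Sham replicate 1 was the highest library and injury replicate 2 the lowest, with injury replicate 1 above sham replicate 2. The difference was -0.293 (SE 0.202, 95% interval -0.798 to 0.212, limma adjusted p = 0.387), and its range over the fits on 3 libraries was -0.500 to -0.0857.

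For the calcium cycle, *Atp2a2* had values of 0.303 and 0.251 in sham and 0.299 and 0.0748 in injury. Injury replicate 1 lay between the sham libraries, and injury replicate 2 was the lowest. The difference was -0.0901 (SE 0.148, 95% interval -0.460 to 0.280, limma adjusted p = 0.726), and 0.0218 without injury replicate 2. Since the values are per gene over all its reads, the SERCA2b isoform was not separated from the other products of *Atp2a2*.

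*Gk*, read from the row *Gyk*, had the largest difference of the 7 genes. Its values were -0.414 and 1.08 in sham and 1.84 and 1.30 in injury. Both injury libraries were above both sham libraries, but sham replicate 1 minus sham replicate 2 was -1.498 and sham replicate 2 lay close below injury replicate 2. The difference was 1.23 (SE 0.498, 95% interval -0.0150 to 2.48), larger in size than that of 95.3% of all genes, with a limma adjusted p of 0.173 and an unadjusted p of 0.0520. It ran from 0.484 without sham replicate 1 to 1.98 without sham replicate 2, and in neither fit was it called.

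*Ucp1*, the uncoupling protein of brown and beige fat, showed the same order of libraries. Its values were 0.971 and 2.76 in sham and 3.82 and 3.02 in injury. The difference of 1.55 (SE 0.608) was not called either (limma adjusted p = 0.164), and leaving out sham replicate 1 gave 0.659, leaving out sham replicate 2 gave 2.45. For both genes sham replicate 1 was the lowest library and injury replicate 1 the highest.

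The futile cycle genes were then set beside a list of brown adipocyte genes in the same libraries. In the list of 10 brown adipocyte genes, 7 rose after injury, beside 3.76% of all genes, none fell, and the median difference was 1.11. Of the 10, 2 were called after quantile normalization of the columns, 0 without sham replicate 1, sham replicate 2 or injury replicate 1, and 8 without injury replicate 2. *Cidea*, which encodes a lipid droplet protein, had values of 0.620 and 1.67 in sham and 3.32 and 3.28 in injury, a difference of 2.15 (SE 0.343, limma adjusted p = 0.0323). *Cpt1b*, the muscle and brown fat form of the carnitine palmitoyltransferase that admits fatty acids to mitochondria, differed by 1.63 (SE 0.229, limma adjusted p = 0.0291). *Letmd1*, a mitochondrial protein of brown fat, rose from 0.0320 and 0.325 in sham to 1.61 and 1.31 in injury. *Pank1*, a pantothenate kinase of coenzyme A synthesis, rose by 1.177.

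**Figure D2:**
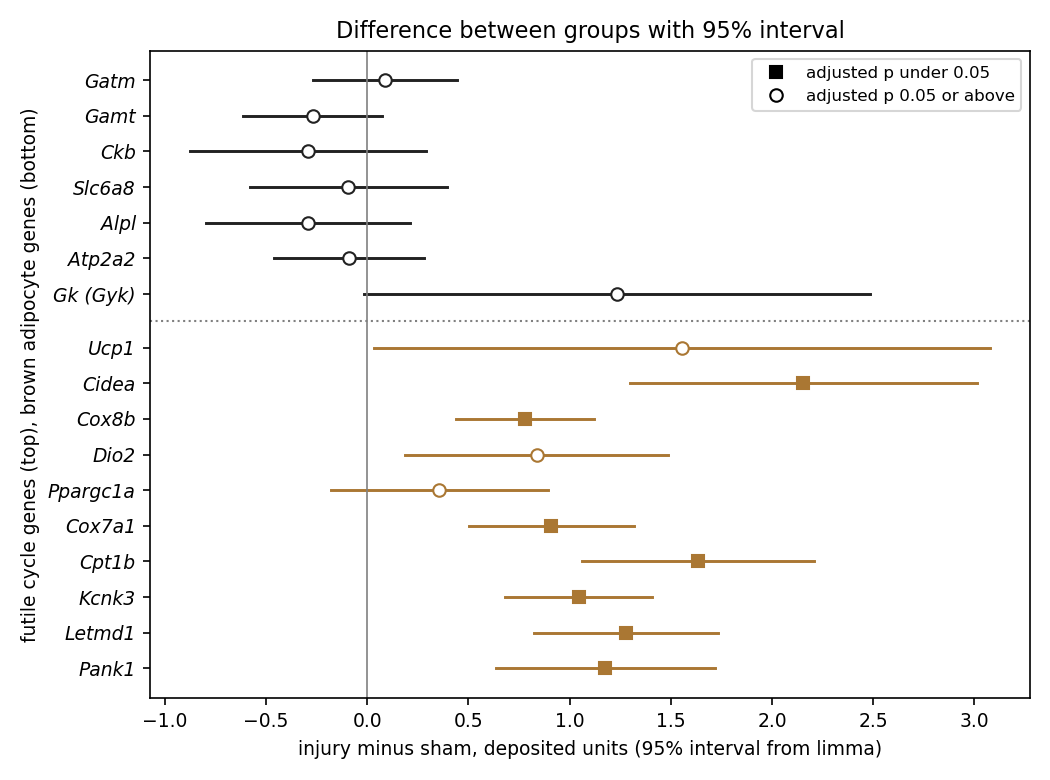
Injury minus sham (horizontal axis, deposited units) with its 95% interval from limma for the 7 futile cycle genes (black, top) and the 10 brown adipocyte genes (brown, bottom); filled squares have an adjusted p under 0.05. The intervals of all 7 futile cycle genes include 0, and 7 brown adipocyte genes are filled, with differences between 0.779 (*Cox8b*) and 2.15 (*Cidea*).

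Subtracting the median of the brown adipocyte list within each library placed both injury libraries below both sham libraries for all 6 genes, with a median difference of -1.17. The same was true of 91.6% of all genes on this scale, so the count says little about the 6 genes themselves. *Ckb*, for example, was -0.193 and -1.10 in sham and -1.85 and -2.00 in injury on this relative scale. *Gyk* was -1.02 and 0.196 in sham and 0.123 and -0.452 in injury, so that its groups overlapped. The subtraction adds the rise of the brown adipocyte list, with its sign turned, to every gene, and the relative values are given without a test.

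Relative to genes that all adipocytes express, the 6 genes gave another picture. After subtraction of the median of 12 pan-adipocyte genes, 5 overlapped between the groups and 1, *Gatm*, was above sham in both injury libraries (-0.646 and -0.629 against -0.253 and -0.553), as were 33.1% of all genes. The median difference was -0.0357, and it turned to 0.185 without sham replicate 1 and to 0.274 without injury replicate 2. The pan-adipocyte list itself had 5 differences above 0 and 7 below, with a median of -0.255. Within it *Plin1*, the lipid droplet coat protein, was the 1 called gene and fell (difference -0.740, SE 0.142, limma adjusted p = 0.0444). This call was lost without sham replicate 1, sham replicate 2 or injury replicate 1. *Adipoq* (adiponectin) differed by -0.796 (SE 0.261, limma adjusted p = 0.119). Its fall shrank to -0.425 once injury replicate 1 was dropped, while dropping injury replicate 2 instead gave -1.17. *Lpl*, lipoprotein lipase, went the other way with a difference of 0.647 (SE 0.190, limma adjusted p = 0.0953), and 0.426 to 0.868 with each library left out.

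Several of the genes are also expressed in muscle, and muscle genes varied between the sham libraries. The median of the 7 analysed skeletal muscle genes of 12 was 0.627 and -0.0752 in sham and -0.191 and -0.392 in injury, highest in sham replicate 1. Sham replicate 1 was also the highest library for *Gamt*, *Ckb*, *Slc6a8*, *Alpl* and *Atp2a2*. For *Gamt* (0.00293 against -0.0179 in sham replicate 2) and *Atp2a2* (0.303 against 0.299 in injury replicate 1) it was so only just. None of the 7 was called (4 at an unadjusted p-value under 0.05), with 6 differences below 0 and 1 above. *Acta1*, skeletal actin, was 0.788 and -0.0133 in sham and -0.1497 and -0.407 in injury (difference -0.666, and -0.265 without sham replicate 1), and the fast myosin chains *Myh4*, *Myh1* and *Myh2* were not analysed here. *Pvalb*, the calcium buffer parvalbumin of fast fibres, was the gene above 0, with 0.102 and -0.697 in sham and 0.717 and 0.907 in injury (difference 1.11, SE 0.280, limma adjusted p = 0.0713). With each library left out the difference of *Pvalb* ran from 0.71 to 1.51. Relative to this list 4 of the 6 genes were above sham in both injury libraries and 2 overlapped, with a median difference of 0.385, and 58.7% of all genes were above sham in the same way. The part of muscle in the values of the futile cycle genes was not tested.

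**Figure D3:**
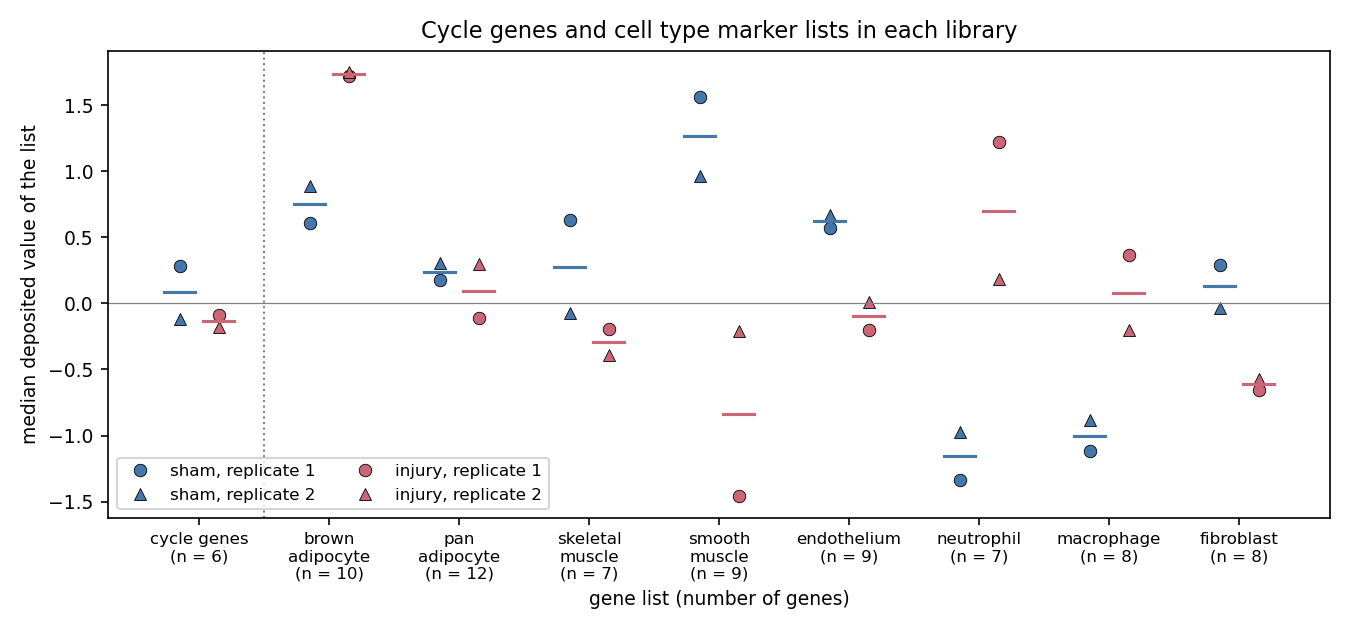
Median deposited value (vertical axis, log-like units) of the 6 futile cycle genes and of 8 cell type marker lists in each library, with the number of genes in brackets; blue is sham, red injury, circles replicate 1, triangles replicate 2 and bars the mean of the 2 medians. The median of the futile cycle genes was 0.285 and -0.115 in sham and -0.0908 and -0.179 in injury, and sham replicate 1 was also the highest library for the skeletal muscle, smooth muscle and fibroblast lists.

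Other cell types of the artery wall and its surroundings also differed between the groups. Over all 12661 genes, 3831 were below sham in both injury libraries, and by the limma test 3.67% fell and 3.76% rose. All 9 smooth muscle genes were below sham in both injury libraries and 5 fell, among them *Acta2* (difference -2.18, SE 0.395, limma adjusted p = 0.0397). The median of the smooth muscle list was 1.56 and 0.966 in sham and -1.46 and -0.212 in injury. Of 9 endothelial genes 2 fell (*Pecam1* and *Vwf*), and of 8 fibroblast genes 5 fell. The fibroblast list had 7 differences below 0 and 1 above, that of *Pdgfra* (0.407, SE 0.214, limma adjusted p = 0.271). Neutrophil genes rose in 2 of 7 cases and macrophage genes in 3 of 8, such as *Lyz2* (difference 1.54, SE 0.194, limma adjusted p = 0.0285). The macrophage list had 7 differences above 0 and 1 below, that of *Cd163* (-0.810, SE 0.346, limma adjusted p = 0.191). Of the slow and cardiac muscle list 3 of 10 genes were analysed and none was called, while without injury replicate 2 there was 1 call. *Cdh1* was the analysed gene of 8 epithelial genes, with 2.23 and 0.262 in sham and 0.235 and -0.834 in injury. Without either sham library none of the genes of these lists was called. Without injury replicate 1 the calls were 2 for smooth muscle, 1 for endothelium, 0 for fibroblasts, 2 for neutrophils and 1 for macrophages, and without injury replicate 2 they were 8, 3, 4, 7 and 6 in the same order. The shares of these cells in the differences of the futile cycle genes were not tested.

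Partner genes of the 3 cycles, in 7 lists, were examined next. Of 82 genes named, 69 were analysed, 3 fell and none rose, beside 7.43% of all genes called, and 30 had an unadjusted p-value under 0.05, beside 29.5% of all genes. The median difference over the 69 genes was 0.0678, against 0.00846 over all genes. The 3 genes that fell were *Pln*, *Jph2* and *Stim1*. None of the 3 was called without sham replicate 1, sham replicate 2 or injury replicate 1, and without injury replicate 2 *Pln* and *Jph2* were called but *Stim1* was not.

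*Pln* encodes phospholamban, the small membrane protein that inhibits SERCA2. Its values were 1.501 and 0.714 in sham and -0.715 and -0.371 in injury, with both injury libraries below both sham libraries. The difference was -1.65 (SE 0.290, limma adjusted p = 0.0375). *Jph2* encodes junctophilin 2, which tethers the endoplasmic reticulum of muscle cells to the plasma membrane. Its values were 1.45 and 0.828 in sham and -1.12 and -0.211 in injury, a difference of -1.81 (SE 0.358, limma adjusted p = 0.0467). Both are known from muscle cells. In both genes, as in the smooth muscle list median, sham replicate 1 was the highest library and injury replicate 1 the lowest, and the part of smooth muscle in these differences was not tested. In the remaining 8 analysed genes of this list of SERCA and ryanodine receptor partners (10 of 17 analysed) no call was made, and the list median was -0.192.

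*Stim1*, the calcium sensor of the endoplasmic reticulum that opens the store-operated entry channels, had values of 0.604 and 0.571 in sham and -0.0450 and -0.0890 in injury. The libraries of each group lay within 0.05 of each other. The difference was -0.655 (SE 0.132, limma adjusted p = 0.0475). It was the called gene among 13 of calcium entry and mitochondrial calcium uptake, a list in which 10 differences were above 0 and 3 below, with a median of 0.270.

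Among the other calcium pumps and channels, 6 of 7 were analysed and none was called, with 2 differences above 0 and 4 below. Of these, 5 had an unadjusted limma p-value under 0.05, beside 29.5% of all genes. *Atp2a1*, the fast muscle SERCA, was 0.476 and -0.00902 in sham and -0.427 and -0.891 in injury, with a difference of -0.892 (SE 0.241, limma adjusted p = 0.0812). *Atp2a3*, the SERCA of blood and endothelial cells, was 1.44 and -0.177 in sham and -0.462 and -0.0346 in injury, and its groups overlapped (difference -0.881, SE 0.523, limma adjusted p = 0.322). Without sham replicate 1 the difference of *Atp2a3* was -0.0712, and without sham replicate 2 it was -1.69. For both, sham replicate 1 was again the highest library. The lowest adjusted p-values of the list belonged to *Itpr3*, *Itpr2* and *Itpr1*. *Itpr3* differed by -0.6475 (SE 0.137, limma adjusted p = 0.0520) and *Itpr1* by -0.546 (SE 0.1395, limma adjusted p = 0.0728). *Itpr2* was above sham in both injury libraries, with a difference of 0.823 (SE 0.185, limma adjusted p = 0.0573).

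**Figure D4:**
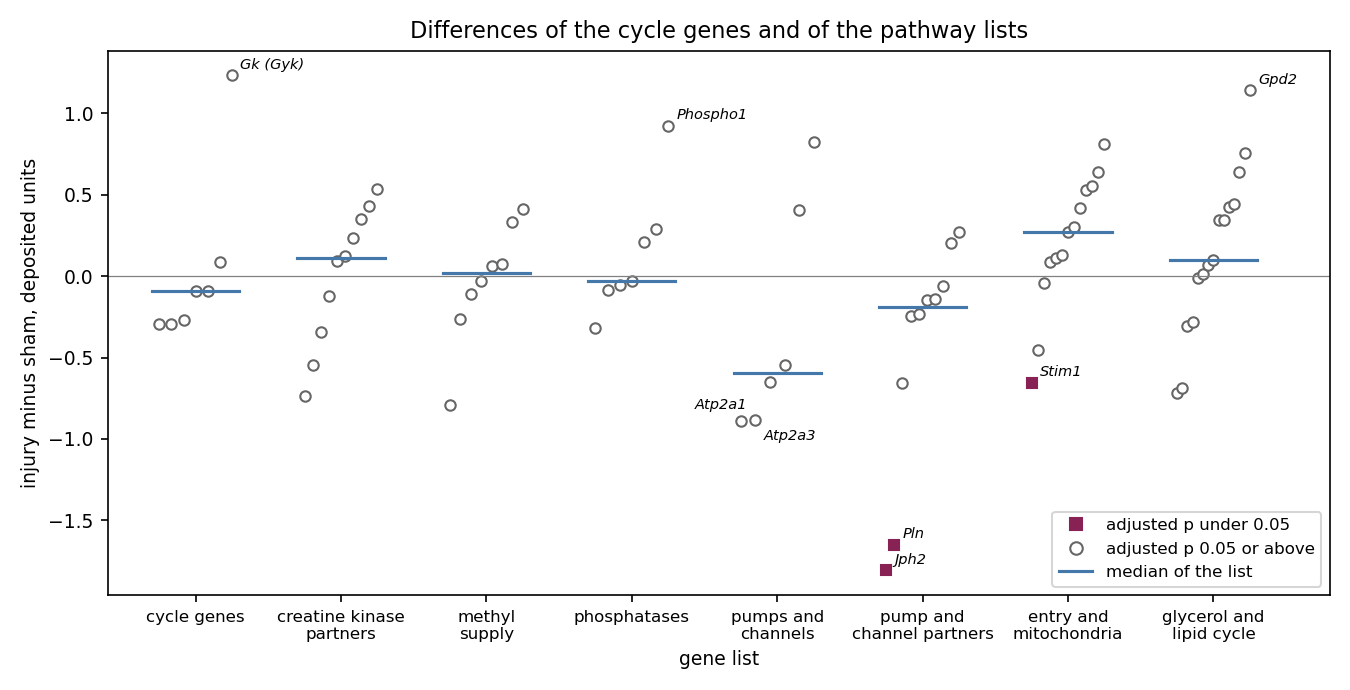
Injury minus sham (vertical axis, deposited units) for the 7 futile cycle genes and the 69 analysed partner genes in 7 lists; filled squares have an adjusted p under 0.05 and blue bars are list medians, here with *Gyk* among the cycle genes (median -0.0930). The filled genes are *Pln*, *Jph2* and *Stim1*, all below 0, and the pump and channel list has the lowest median at -0.597.

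In the creatine lists no gene was called. All 10 partners of creatine kinase, carriers of ATP through the mitochondrial membranes and adenylate kinases were analysed, with 6 differences above 0 and 4 below. Of the 10, 5 had an unadjusted limma p-value under 0.05, beside 29.5% of all genes. The lowest adjusted p of the list was that of *Vdac2*, which was above sham (difference 0.535, SE 0.136, limma adjusted p = 0.0719). *Ckm*, the muscle creatine kinase, was 0.811 and 0.0443 in sham and -0.215 and -0.401 in injury, with a difference of -0.736 (SE 0.272, limma adjusted p = 0.148), with -0.352 when sham replicate 1 was left out and -1.12 when sham replicate 2 was. It was highest in sham replicate 1, as were *Ckb* and the skeletal muscle list. *Ak4*, a mitochondrial adenylate kinase, differed by -0.546 (SE 0.267, limma adjusted p = 0.241), with injury replicate 2 at -0.457 and the other libraries between 0.303 and 0.537, and by -0.166 without injury replicate 2 and -0.926 without injury replicate 1.

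Of the genes that supply or use the methyl groups and glycine of creatine synthesis, 8 of 9 were analysed, 4 above 0 and 4 below. *Nnmt*, nicotinamide N-methyltransferase, was 0.354 and 0.290 in sham and -0.818 and -0.129 in injury (difference -0.795, SE 0.246, limma adjusted p = 0.107). Leaving out injury replicate 1 gave -0.451 and leaving out injury replicate 2 gave -1.14, where *Nnmt* was called (limma adjusted p = 0.0165). *Shmt1*, which converts serine to glycine, was 0.0296 and 0.0174 in sham and 0.410 and 0.464 in injury (difference 0.414, SE 0.132, limma adjusted p = 0.112). Neither pair of groups overlapped, as in 61.9% of all genes.

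Of the phosphatase and phosphate list, 7 of 9 genes were analysed and none was called. *Phospho1*, a phosphatase of phosphocholine and phosphoethanolamine, was 0.337 and 0.652 in sham and 1.62 and 1.21 in injury, with a difference of 0.925 (SE 0.204) and a limma adjusted p of 0.0549. Without injury replicate 2 *Phospho1* was called (limma adjusted p = 0.0263). *Acp5*, tartrate-resistant acid phosphatase, overlapped between the groups (difference -0.319, SE 0.230, limma adjusted p = 0.407), with -0.0103 without injury replicate 1 and -0.628 without injury replicate 2.

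In the glycerol and lipid cycle around *Gk*, 15 of 17 genes were analysed, 10 above 0 and 5 below, and none was called. *Gpd2*, the mitochondrial glycerol 3-phosphate dehydrogenase, was 0.0675 and 0.762 in sham and 1.72 and 1.395 in injury, a difference of 1.14 (SE 0.265, limma adjusted p = 0.0615). Its libraries had the order of those of *Gyk*. *Gpat4*, matched by its older symbol *Agpat6*, encodes an acyltransferase that starts glycerolipid synthesis. It was -0.224 and 0.0641 in sham and 0.578 and 0.771 in injury, with a difference of 0.754 (SE 0.167, limma adjusted p = 0.0558). Acyltransferase genes of the same list went the other way, with both injury libraries below both sham libraries. *Gpam* differed by -0.7165 (SE 0.169, limma adjusted p = 0.0628) and *Gpat3*, matched by its older symbol *Agpat9*, by -0.685 (SE 0.257, limma adjusted p = 0.152).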

How the data were processed

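Libraries were prepared by the authors with a strand-specific mRNA kit, each with 480 ng of RNA. The submitters' processing notes name FastQC 0.11.8, cutadapt 1.18, Trimmomatic 0.39, STAR 2.6.0a on mm9, featureCounts, DESeq2 1.28.0 and R 3.6.0. The values the authors deposited are not counts but signed decimals, treated as a score. They run from -2.27 to 6.45 and 50.5% are below 0. How they were made from counts is not given in the sources used here, so depth is unknown and no filter on low values was applied.

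Differences were tested with limma 3.58.1 in R 4.3.3 (lmFit and eBayes without trend, group as the only term, 4 libraries), with Benjamini-Hochberg adjustment over 12661 genes and a threshold of 0.05. The prior had 3.48 degrees of freedom beside 2 residual ones. Intervals at 95% used their sum, 5.48. With a group of 2 libraries left as 1 library, the lone library is assumed to vary like the others.

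The futile cycle genes, the partner lists and the marker lists were chosen with earlier results of these data known. Named were all members, up to 4 called genes of each partner list or, where none was called, the 2 with the largest absolute difference, the first 2 analysed genes and called genes of marker lists, up to 4, and *Ucp1*. *Cox8b*, *Lpl*, *Pvalb*, *Gpam*, *Gpat3*, *Itpr1*, *Itpr2*, *Itpr3*, *Vdac2* and *Cd163* were named after their values were seen, as were the myosin chains not analysed here. A marker list with an item that is not reported here was left out of the text. Genes absent by symbol were looked up by older symbols. Alternatives were a replicate block, each library left out, quantile normalization, a robust prior, columns scaled to one spread, no sharing of variance, identical rows counted once and a threshold of 0.1.

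The limma step was tested on simulated data. A first simulation, which took each gene's raw variance over 2 degrees of freedom as true, called 64.2% of genes changed by 2 units, under the share of 80% first asked for. It was replaced by one that drew variances from the fitted prior, with its criteria also changed to recovery of the prior, of direction and of the share of false calls, which it met. This second simulation called 91.9% of genes changed by 2 units but only 22.8% of genes changed by 1 unit. Both simulated injury against sham over 12661 genes. Gene positions are from GENCODE vM1 and promoters from RefSeq (GRCm38.p6), and the set of promoters used here held none for *Slc6a8* and *Atp2a2*. Python 3.11.15, pandas 2.3.3, numpy 2.4.6 and matplotlib 3.10.9 were used.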

Additional observations from a re-analysis of the deposited data

How the results depend on the processing

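The count of futile cycle genes called was 0 under every alternative run. The 941 genes called in all became 684 with a replicate block, 0 without sharing of variance and 2317 at a threshold of 0.1, and lay between 0 (without sham replicate 1) and 1790 (without injury replicate 2) when each library was left out, with 1 without sham replicate 2 and 284 without injury replicate 1. The 3 partner genes called became 1 with the replicate block, 5 with columns scaled to one spread (*Phospho1* at 0.0344 and *Gpd2* at 0.0496 gaining a call in limma), 2 with the robust prior (*Jph2* at 0.0502 losing its call), 0 without sharing of variance and 16 at the threshold of 0.1, and lay between 0 and 9 with each library left out. With the replicate block the limma adjusted p was 0.0632 for *Jph2*, 0.05001 for *Pln* and 0.0773 for *Stim1*, all 3 losing their call, and 0.0470 for *Atp2a1*, which gained it. The block left 5 of 7 calls among brown adipocyte genes (*Cox8b* at 0.0595 lost its call), 1 of 5 in smooth muscle, 1 of 5 in fibroblasts and 0 of 1 in the pan-adipocyte list, and all calls of the endothelial, neutrophil and macrophage lists in number, while *Actc1* of the slow and cardiac muscle list (0.0358) and *Cdh1* (0.0438) gained a call. After quantile normalization *Cidea* and *Cox8b* (0.105 each), *Cpt1b* (0.0788) and *Pank1* (0.0819) lost their call in limma by adjusted p, and 2 of the 10 brown adipocyte genes were called. With columns scaled to one spread 5 were called, with *Cox8b* at 0.0620. The deviations of same-numbered libraries correlated at -0.0940, so the numbers are not shown to pair the libraries. With each library left out, *Ckb* lay between -0.605 and 0.0207 and *Slc6a8* between -0.332 and 0.146, above 0 without sham replicate 1, and *Atp2a2* between -0.202 and 0.0218, above 0 without injury replicate 2. The cause was not tested. Relative to the pan-adipocyte list the median difference of the 6 genes lay between -0.262 and 0.274 with each library left out (0.185 without sham replicate 1), and relative to the skeletal muscle list between 0.193 and 0.612. Relative to the brown adipocyte list it lay between -1.44 and -0.868. Depth is unknown, so its part in these limits is unknown too.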
